A study of Homo sapiens with 6 samples.

Results

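The miR-148 and miR-152 family comprises 3 microRNA (miRNA) hairpins, each of which releases a guide strand from its 3p arm and a minor passenger strand from its 5p arm. Its members were taken by name from a deposited table of miRNA counts: miR-148a-3p, miR-148a-5p, miR-148b-3p, miR-148b-5p, miR-152-3p and miR-152-5p, 6 of 2656 mature miRNAs listed. Small RNA was sequenced from KPL4, an established human breast adenocarcinoma line. One group held 3 libraries of cells in which ERβ, the estrogen receptor encoded by ESR2, was knocked out, called S1, S2 and 3. The other held 3 libraries of knockout cells that also carried exogenous ERβ, brought in by transfection and called 1, 2 and 3. Both groups therefore lack the endogenous receptor. An empty-vector control and unedited KPL4 cells were not analysed here, and the labels leave unsaid whether both groups stem from 1 knockout clone. ERβ and any other difference between the 2 cell populations cannot be told apart. Separate cultures are not stated for the replicates either, and a p-value here reflects the spread among libraries that may be technical.

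A miRNA guides the Argonaute complex to messenger RNAs that pair with its seed, bases 2 to 8 from the 5′ end, and lowers their translation and stability. The members of this family share their seed and therefore much of their predicted target set. They are best known for repressing DNMT1, the maintenance DNA methyltransferase, and miR-148a and miR-152 have been described as silenced by promoter methylation in breast and other cancers.

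The sequences are shown to make plain how little separates the 3 guide strands, since the same seed can be supplied by any of them. They are RefSeq mature sequences on GRCh38.p14, with the seed in capitals; 5 of the 6 members matched an entry.
miR-148a-3p: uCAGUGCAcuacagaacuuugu
miR-148b-3p: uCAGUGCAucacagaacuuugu
miR-152-3p: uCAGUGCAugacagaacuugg
miR-148b-5p: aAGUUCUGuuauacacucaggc
miR-152-5p: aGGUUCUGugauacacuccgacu
Among the table names with a RefSeq sequence, only these 3 guides carried that seed. Counted from the 5′ end, miR-148b-3p differed from miR-148a-3p by C9U and U10C, with 20 of 22 bases identical. miR-152-3p differed from miR-148a-3p by C9U, U10G and U20G and from miR-148b-3p by C10G and U20G. All of these substitutions lie outside the seed. The 5p arms do not share a seed with the guides, and A2G separates the seeds of miR-148b-5p and miR-152-5p.

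The hairpins come from 3 chromosomes and are printed with the annotated mature strands in capitals, so that the arms compared later can be placed; the 5p strand of MIR148A, with no mature entry, is not marked.
MIR148A: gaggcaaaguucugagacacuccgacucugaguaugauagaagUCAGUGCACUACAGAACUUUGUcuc
MIR148B: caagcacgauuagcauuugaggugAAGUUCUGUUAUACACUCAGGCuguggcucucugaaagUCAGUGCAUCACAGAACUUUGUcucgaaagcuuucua
MIR152: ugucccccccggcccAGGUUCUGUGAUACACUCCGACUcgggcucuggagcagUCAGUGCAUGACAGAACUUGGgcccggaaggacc
MIR148A lies at chr7:25949919-25949986 on the minus strand of GRCh38 and overlaps no other gene in GENCODE 29. MIR148B lies at chr12:54337216-54337314 on the plus strand, in an intron of COPZ1. MIR152 lies at chr17:48037161-48037247 on the minus strand, in an intron of COPZ2. COPZ1 and COPZ2 encode zeta subunits of the COPI vesicle coat, and their messenger RNAs are not measured by this assay.

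Libraries held 10288415 to 14296902 expected counts. Knockout library S2 stood apart: over all tested miRNAs its chi-square per degree of freedom was 307 against S1 and 331 against library 3, while the other pairs within a group lay between 12.2 and 21.2. Values without it are given for the members, and for most listed miRNAs, where its absence turned a direction or changed a call. In addition, without it miR-429, miR-142-3p and miR-138-5p turned to -0.02, -0.16 and -0.02, and miR-128-3p to 0.04. miR-26b-5p was called lower without it (-0.21). Markers of epithelium were abundant, with 7 of 7 tested and a summed level of 93106 to 110373 CPM (counts divided by the TMM-scaled library total and given per 1e6). Of these, miR-205-5p was higher (log2 fold change 0.52) and miR-141-3p, miR-200c-3p and miR-203a-3p were lower (-0.33, -0.31 and -0.25), with a median of -0.25 over the 7; miR-200a-3p was at -0.01, and without S2 it and miR-200b-3p were called lower (-0.12 and -0.35). Of 18 markers of blood, stromal, endothelial, muscle, neural and liver cells, 10 were tested, 0 were higher and 4 lower (against 9.83% and 13.3% of all tested miRNAs), and their sum was 21894 to 22546 CPM in knockout and 18073 to 19268 CPM in ERβ libraries. The 4 lower ones were miR-126-3p (-0.30), miR-199b-5p (-0.80, at 211 to 413 CPM), miR-143-3p (-1.15) and miR-1-3p (-2.67, at 0.270 to 3.87 CPM). Most of that sum came from miR-126-3p and miR-128-3p. miR-142-3p was at 10.0 to 15.9 CPM, miR-122-5p at 17.2 to 28.7 CPM and miR-451a at 0.744 to 1.63 CPM. miR-206 and miR-124-3p were at 0 in 4 and 5 of the 6 libraries. The part of these markers in the results was not tested.

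With exogenous ERβ, 1 of the 6 members fell, miR-152-3p, and none rose. Its level dropped to 0.616 of that in knockout cells, while the most abundant guide, miR-148b-3p, differed by 1.06-fold and did not pass the test. The third guide, miR-148a-3p, lay between them and did not pass, but its call depended on the libraries, the filter and the tool. All 6 members were abundant enough to test. The test was edgeR's quasi-likelihood test with Benjamini-Hochberg adjustment over 783 miRNAs, of which 23.1% passed at an adjusted p under 0.05, 9.83% higher and 13.3% lower. A count of 1 in 6 lower is close to that background. At an unadjusted p under 0.05 there were 2 of the 6, miR-152-3p and miR-148a-3p, where 34.4% of all tested miRNAs were.

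**Figure D1:**
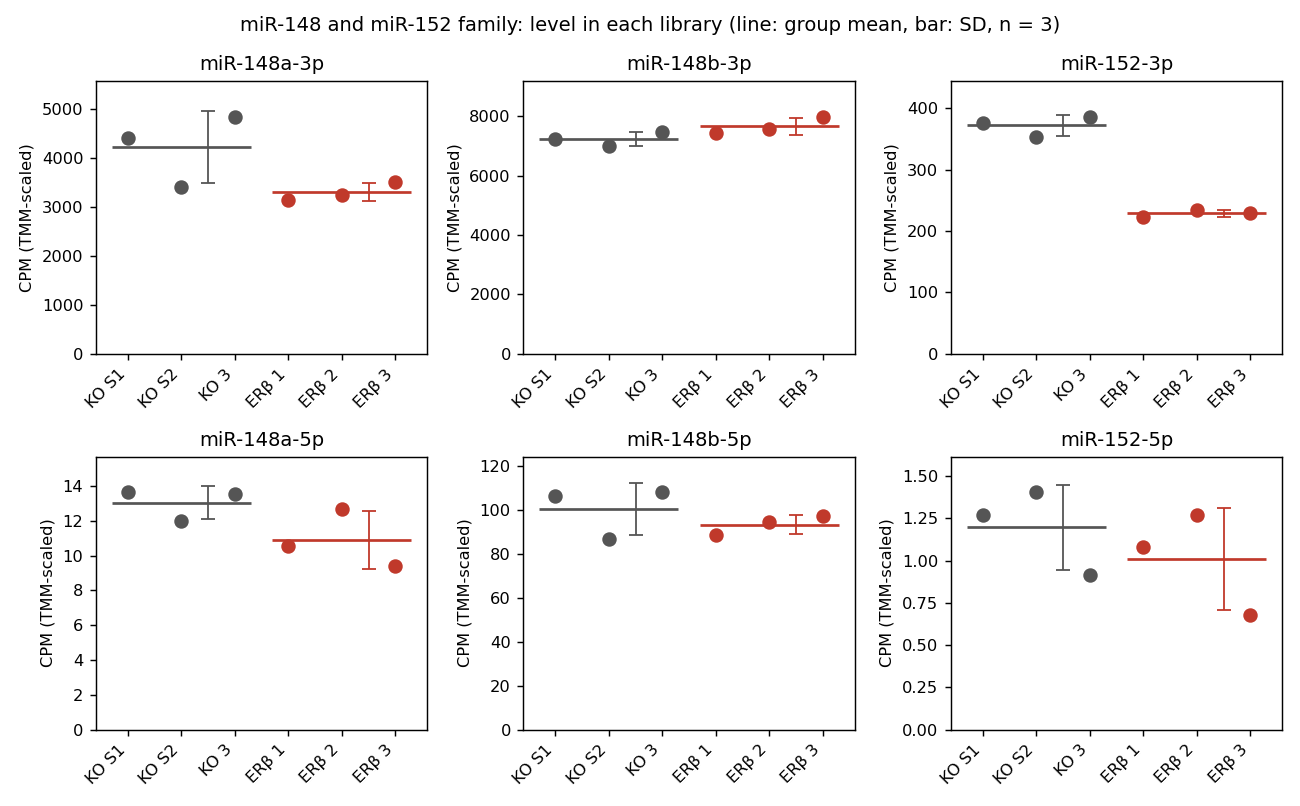
CPM of each of the 6 members (vertical axes, linear from 0) in the 3 knockout libraries (grey) and the 3 libraries with exogenous ERβ (red); lines are group means and bars SD. The groups are separate for miR-152-3p and overlap for the other 5 members.

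The order of the levels was the same in all 6 libraries: miR-148b-3p, miR-148a-3p, miR-152-3p, miR-148b-5p, miR-148a-5p and miR-152-5p. Each read spans a whole mature strand of 21 to 23 bases, so CPM were not divided by length. No neighbours in this order overlapped. The closest were miR-148b-3p and miR-148a-3p, where the lowest library of the first was 1.44 times the highest of the second. miR-148a-3p exceeded miR-152-3p 12.5-fold on average over the 6 libraries. Among all tested miRNAs, miR-148b-3p ranked 38 by mean level in knockout and 36 in ERβ libraries, miR-148a-3p 58 and 60, and miR-152-3p 126 and 144. As a scale, the 5 most abundant miRNAs were miR-21-5p (140072 ± 29747 CPM in knockout), miR-16-5p, let-7f-5p, let-7a-5p and miR-9-5p (42756 ± 4028 CPM).

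miR-152-3p is the guide from the COPZ2 intron and a described repressor of DNMT1. It was counted 4127, 4280 and 3796 times in knockout libraries S1, S2 and 3 and 2474, 3501 and 3401 times in ERβ libraries 1, 2 and 3. Scaled, these were 375, 354 and 386 CPM against 223, 234 and 230 CPM. Every ERβ library lay below every knockout library, as in 39.8% of all tested miRNAs in either direction and 20.9% in this one. The log2 fold change, ERβ over knockout, was -0.70 ± 0.08 (SE, n = 3 per group), from 372 ± 16.5 to 229 ± 5.61 CPM (mean ± SD; adjusted p = 2.05e-04 in edgeR). A log2 fold change at or below this one was measured for 63 tested miRNAs (8.05%), itself included. The call held in all 15 alternative settings, with adjusted p from 4.11e-11 to 0.00922 and log2 fold changes from -0.73 to -0.54.

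miR-148a-3p is the guide of the hairpin on chromosome 7, a miRNA abundant in many epithelia. It stood at 4411, 3414 and 4842 CPM in knockout libraries S1, S2 and 3 and at 3148, 3237 and 3499 CPM in ERβ libraries 1, 2 and 3. Only knockout library S2 fell within the range of the ERβ libraries; the other knockout libraries lay above all of them. The log2 fold change was -0.36 ± 0.12 (n = 3 per group), from 4222 ± 732 to 3295 ± 183 CPM, and did not pass (adjusted p = 0.0592 in edgeR). Without knockout library S2 it was -0.49 and passed (edgeR, adjusted p = 5.98e-08), in a fit in which 34.9% of 800 tested miRNAs passed. It also passed with all libraries in the DESeq2 test (adjusted p = 0.0367) and in edgeR without a filter on low counts (adjusted p = 0.00927). The adjusted p ranged from 5.98e-08 to 0.223 over the 15 alternatives, and the direction was the same in each.

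miR-148b-3p, the guide from the COPZ1 intron, was the most abundant member. Knockout libraries S1, S2 and 3 had 7237, 6986 and 7489 CPM and ERβ libraries 1, 2 and 3 had 7446, 7561 and 7991 CPM. The groups overlapped, since knockout library 3 lay above ERβ library 1. The log2 fold change was 0.08 ± 0.06 (n = 3 per group; adjusted p = 0.417 in edgeR). It was called higher when libraries were scaled by upper-quartile factors (0.20, adjusted p = 0.0452) or by totals alone (0.24, adjusted p = 0.0128). These scalings moved the median log2 fold change of all tested miRNAs by 0.11 and 0.15.

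**Figure D2:**
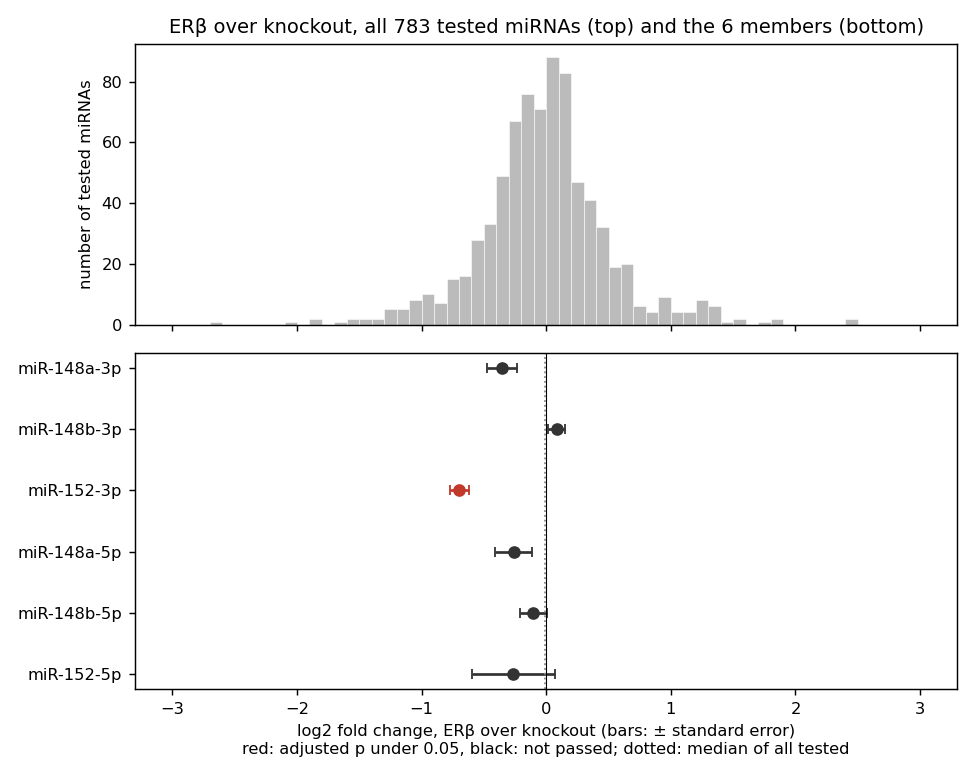
Top, the number of tested miRNAs by log2 fold change, ERβ over knockout. Bottom, the 6 members with their standard errors; miR-152-3p at -0.70 is in red because it passed at an adjusted p under 0.05, and the other 5, from -0.36 to 0.08, did not.

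The 5p strands are the passengers, most of which are degraded when the guide is loaded. miR-148b-5p was the most abundant of them, at 106, 87.0 and 108 CPM in knockout libraries S1, S2 and 3 and 88.5, 94.7 and 97.2 CPM in ERβ libraries 1, 2 and 3. Its log2 fold change was -0.10 ± 0.11 (n = 3 per group; edgeR, adjusted p = 0.557). Here too knockout library S2 was the lowest of its group: without it the value was -0.20 and passed (edgeR, adjusted p = 0.0152), whereas with upper-quartile factors or library totals it turned to 0.01 and 0.06. miR-148a-5p had 150, 145 and 133 counts in knockout and 117, 190 and 139 in ERβ libraries, at 13.05 ± 0.925 and 10.9 ± 1.68 CPM. Its log2 fold change of -0.26 ± 0.15 did not pass (n = 3 per group; edgeR, adjusted p = 0.258). miR-152-5p rested on 9 to 19 counts per library (1.198 ± 0.253 CPM in knockout and 1.01 ± 0.304 CPM in ERβ libraries), and its -0.26 ± 0.33 (edgeR, adjusted p = 0.627) leaves a fall as large as that of miR-152-3p not detectable at this depth; it ranged from -0.45 without ERβ library 2 to -0.03 without ERβ library 3. Without knockout library S2, 3 of the 6 members were lower, miR-152-3p, miR-148a-3p and miR-148b-5p, and 0 higher, where 19.6% of tested miRNAs were lower.

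Ratios of 2 members within a library do not depend on how libraries are scaled, so they show directly whether the guides moved alike. miR-148b-3p was counted 19.3, 19.7 and 19.4 times as often as miR-152-3p in knockout libraries S1, S2 and 3 and 33.4, 32.3 and 34.7 times as often in ERβ libraries 1, 2 and 3. The change was 0.78 ± 0.03 on the log2 scale (SE, n = 3 per group), or 1.72-fold, and knockout library S2 was in place among its group. Among knockout libraries this ratio had the smallest spread of the 6 examined, with an SD of 0.02 log2 units, against 0.05 among ERβ libraries. miR-148a-3p over miR-148b-3p was 0.609, 0.489 and 0.646 in knockout and 0.423, 0.428 and 0.438 in ERβ libraries, a log2 change of -0.43 ± 0.12 and of -0.55 without knockout library S2. miR-148a-3p over miR-152-3p was 11.3 ± 1.49 in knockout and 14.4 ± 0.732 in ERβ libraries, a log2 change of 0.35 ± 0.12 and of 0.24 without S2. In each of the 3 pairs the groups did not overlap, and the exact two-sided permutation test gave p = 0.1 for each (adjusted p = 0.2 over 6 ratios), which is the smallest this test can give for 3 against 3 libraries, so it cannot reach 0.05.

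**Figure D3:**
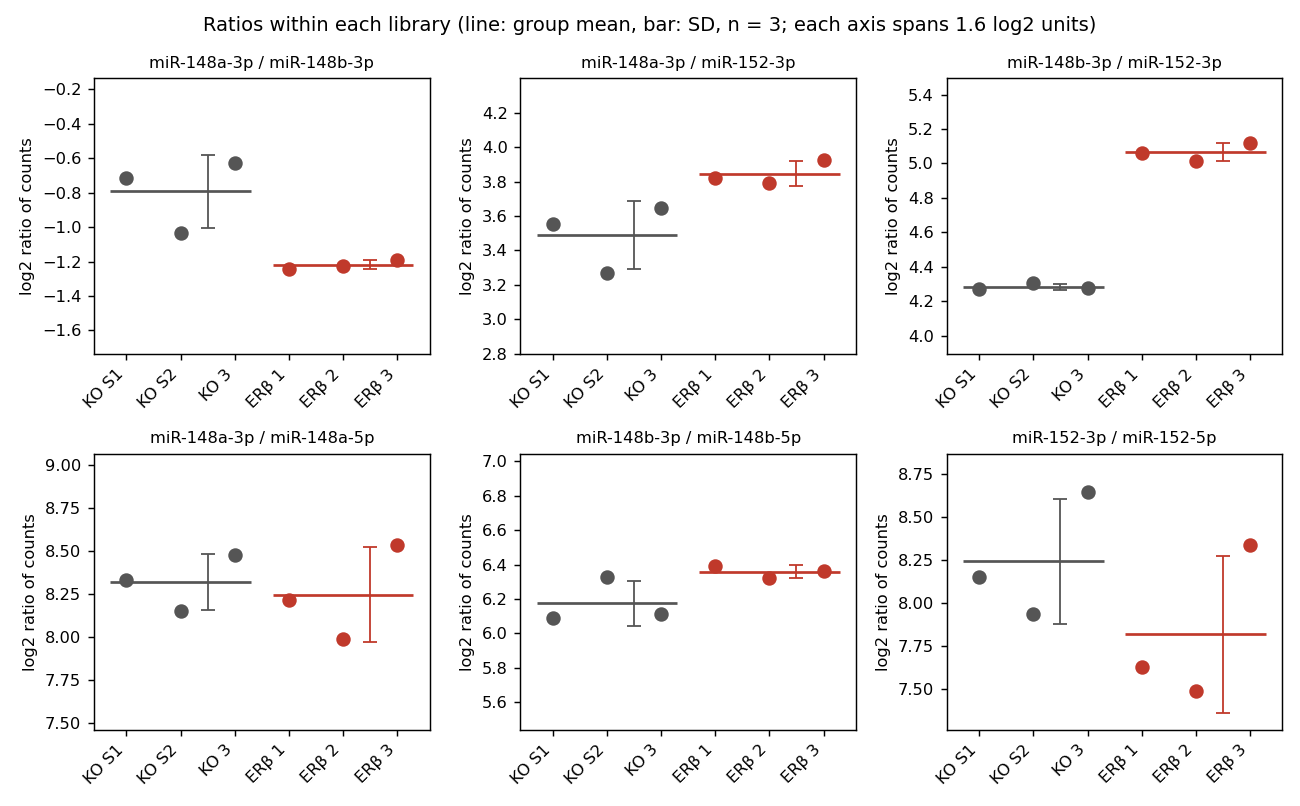
Log2 ratios of counts within each library, for the 3 pairs of guides (top) and for guide over passenger of each hairpin (bottom); grey, knockout; red, exogenous ERβ; lines are means and bars SD. The groups are separate in the top row, most clearly for miR-148b-3p over miR-152-3p (means 4.28 and 5.06), and overlap in the bottom row.

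A ratio of guide to passenger asks whether a change lies in the hairpin as a whole or in 1 of its arms. miR-148a-3p was counted 321 ± 36.3 times as often as miR-148a-5p in knockout and 308 ± 59.1 times in ERβ libraries. For miR-148b the ratio was 72.5 ± 6.71 and 82.1 ± 2.13, and for miR-152 it was 310 ± 80.5 and 234 ± 78.6. The groups overlapped for all 3 hairpins. The log2 changes were -0.07 ± 0.18, 0.18 ± 0.08 and -0.42 ± 0.34 (SE, n = 3 per group), with exact two-sided permutation p = 0.8, 0.2 and 0.3 (adjusted p = 0.8, 0.3 and 0.36). The first turned to 0.00598 without knockout library 3 and to 0.0556 without ERβ library 2. The third ranged from -0.68 without ERβ library 3 to -0.22 without knockout library 3. The passenger of miR-148b was thus the best represented beside its guide. Whether the fall of miR-152-3p was shared by its passenger could not be told from 9 to 19 counts.

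Because the 3 guides share their seed, their sum describes how much of each library's counts carried it in this family. The sum is relative to the scaled library total and does not measure an amount per cell. The sum was 12023, 10753 and 12717 CPM in knockout libraries S1, S2 and 3 and 10816, 11032 and 11721 CPM in ERβ libraries 1, 2 and 3, with overlapping groups. It averaged 11831 ± 996 and 11190 ± 472 CPM, but the order of these means turned with library totals (11189 and 11811 CPM) and upper-quartile factors (11375 and 11630 CPM). Within it, miR-152-3p made up 3.15 ± 0.129% in knockout and 2.05 ± 0.0805% in ERβ libraries, without overlap. miR-148b-3p made up 61.3 ± 3.20% and 68.5 ± 0.329% of the counts, and miR-148a-3p 35.5 ± 3.32% and 29.4 ± 0.386%. The 95% Wilson interval of a share in a single library was at most 0.545 percentage points wide and covers counting error only. In every library miR-152-3p had the smallest share of the 3.

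**Figure D4:**
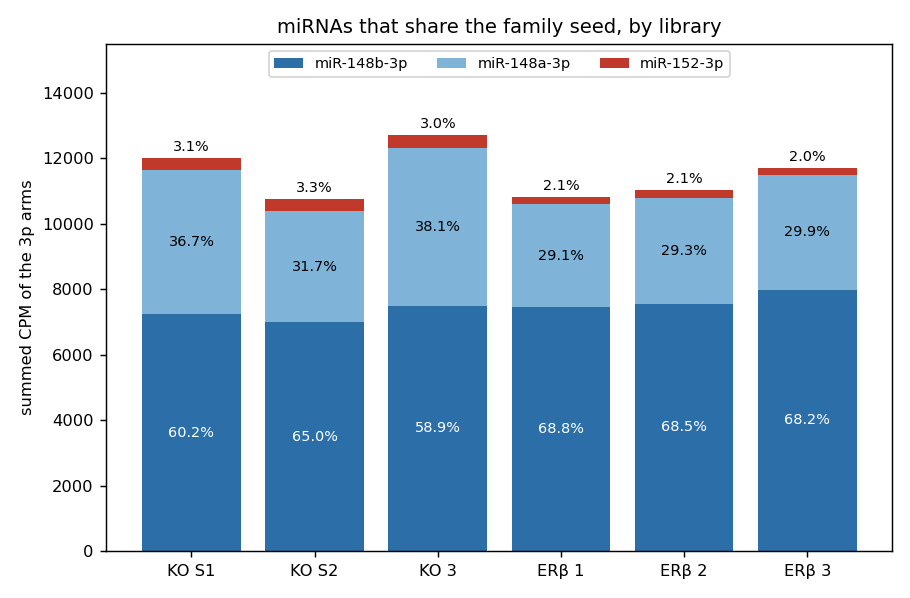
Summed CPM of the 3 guides in each library (bars, linear from 0), with the percentage each guide contributes. The red part, miR-152-3p, averages 3.15% in knockout and 2.05% in ERβ libraries, while total heights of the groups overlap.

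Of the 36 deposited values of the members, 6 were not whole, all among guides: in knockout libraries S1 and S2 both miR-148a-3p (48517.5 and 41310.5) and miR-148b-3p (79612.5 and 84528.5), and in ERβ library 1 miR-148b-3p (82625.5) and miR-152-3p (2474.5). In each of these libraries exactly 2 guides ended in a fraction. How these fractions arose, and their part in the differences, was not tested.

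A different family, that of miR-130, miR-301 and miR-454, carries nearly the same seed at another offset, and is shown because its last 6 shared letters, AGUGCA, sit 1 base nearer the 5′ end.
miR-130b-3p: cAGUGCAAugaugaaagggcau
miR-301a-3p: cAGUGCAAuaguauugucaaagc
miR-454-3p: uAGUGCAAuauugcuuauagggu
The list of related seeds had 12 table names: 6 with AGUGCA at that offset, miR-130a-3p by name, 4 that hold it at the same offset as the family after another first base (miR-519a-3p, miR-519b-3p, miR-519c-3p and miR-4671-3p), and miR-1825, which shares the first 6 bases of the seed instead. Of the 12, 6 had no counts and 5 were tested, all from the miR-130, miR-301 and miR-454 family. None passed in edgeR, the DESeq2 test or limma-voom, 0 had an unadjusted p under 0.05, and the median log2 fold change was 0.12, against -0.01 for all tested. miR-301b-3p was at 0.20 ± 0.10, miR-301a-3p at 0.16 ± 0.10 and miR-130a-3p at -0.10 ± 0.07, the last turning to 0.01 after upper-quartile scaling and 0.05 after scaling by totals. miR-454-3p was the most abundant, at 1623 ± 155 CPM in knockout and 1695 ± 94.5 CPM in ERβ libraries. With library totals 3 of the 5 were called higher, and without knockout library S2 there was 1 higher, miR-130b-3p (0.16), and 1 lower, miR-130a-3p (-0.12), while miR-454-3p turned from 0.06 to -0.01. Of all tested miRNAs, 26.4% passed in either direction with library totals and 34.9% without S2.

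Other miRNAs described as repressors of DNA methyltransferases, EZH2 or HDAC1 formed a list of 14, all tested. Of these 5 were lower and 1 higher (against 13.3% and 9.83% of all tested miRNAs), and the median over the 14 was -0.15 on the log2 scale. The list shares miR-126-3p and miR-143-3p with the stromal and endothelial markers, and both are among the 4 lower markers of other cell types. miR-449a, a described repressor of HDAC1, fell from 49.1 ± 5.80 to 25.1 ± 1.62 CPM (-0.97 ± 0.12). miR-143-3p, reported to act on DNMT3A, fell from 8.001 ± 0.646 to 3.60 ± 0.121 CPM (-1.15 ± 0.15). miR-26a-5p, which represses the histone methyltransferase EZH2, fell from 14601 ± 1450 to 11048 ± 83.5 CPM (-0.40 ± 0.08). miR-126-3p and miR-342-3p were the other lower ones (-0.30 ± 0.06 and -0.49 ± 0.11), and miR-377-3p was the higher one (1.25 ± 0.26). The latter 3 are named after their values were seen, so that every listed miRNA that passed is given. miR-29a-3p, miR-29b-3p and miR-29c-3p, which repress DNMT3A and DNMT3B, did not pass (0.13 ± 0.06, 0.09 ± 0.07 and -0.18 ± 0.09); without knockout library S2, miR-29a-3p was higher (0.12) and miR-29c-3p lower (-0.26). Scaling by totals gave 4 higher and 3 lower. When ERβ library 1 or ERβ library 2 was left out, the lower members numbered 3, and when knockout library S2 was left out there were 2 higher and 7 lower. Of all tested miRNAs, 26.4% passed in either direction with library totals, and 13.7% and 13.9% without ERβ libraries 1 and 2. Without S2, 34.9% passed in either direction, and 19.6% were lower.

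The 3 hairpins share chromosomes with HOX gene clusters, which hold miRNA genes of their own. MIR196B is the nearest annotated miRNA gene above MIR148A, 1219.5 kb away. MIR615 and MIR196A2 lie 303.2 and 345.4 kb from MIR148B, and MIR10A lies 542.6 kb from MIR152. Closer still are MIR3198-2, 105.7 kb from MIR148B, and MIR1203, 119.2 kb from MIR152. The nearest annotated miRNA genes on either side of MIR148B and MIR152 gave no tested miRNA in the fit of all libraries. A list of 17 table names held the miRNAs of these clusters and the nearest annotated miRNA genes, and also miR-10b, whose gene lies in the HOXD cluster and shares no chromosome with the family. Of the 17, 7 were tested, 3 were lower and 0 higher, where 13.3% and 9.83% of all tested miRNAs were, and the median of the 7 log2 fold changes was -0.14. The lower ones were miR-10a-5p (-1.18 ± 0.10), miR-10a-3p (-1.01 ± 0.08) and miR-10b-5p (-1.85 ± 0.15). The miR-10a strands are arms of the same hairpin, so these calls do not stand for separate genes. miR-10a, from the HOXB cluster, lies on the same chromosome as MIR152, and its 3p strand went from 218 ± 3.20 to 108 ± 4.33 CPM. On the chromosomes of the other hairpins, miR-196b-5p was at 0.05 ± 0.14 (79.9 ± 13.99 and 82.4 ± 6.63 CPM). miR-615-3p was at -0.14 ± 0.20, with 330 CPM in knockout library S2 against 192 and 181 in the other knockout libraries and 197 to 223 in the ERβ libraries; without S2 it turned to 0.19 and passed as higher (edgeR, adjusted p = 0.0199). miR-196a-5p, encoded on chromosomes 12 and 17 alike, was at -0.08 ± 0.09. Without knockout library S2 the list had 1 higher and 5 lower of 9 tested. Of all 800 tested miRNAs, 34.9% then passed in either direction and 19.6% were lower. The added lower ones of the list were miR-196a-5p (-0.16) and miR-196a-3p (-0.22). miR-196b-5p turned to -0.09 without S2 and to -0.02 without ERβ library 3.

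For each guide the 3 most similar of 385 other miRNAs averaging at least 10 CPM were found by Pearson's r of log2 CPM over the 6 libraries. These are descriptions, since the libraries fall into 2 groups and share their scaling. miR-152-3p was closest to miR-424-5p (r = 0.995), miR-195-5p (0.995) and miR-497-5p (0.994), miRNAs with a miR-15/16-like seed that restrain cyclins. All 3 were lower without overlap, at log2 fold changes of -1.09 ± 0.08, -1.004 ± 0.07 and -0.72 ± 0.07. Because they were picked for following miR-152-3p, this separation comes with the choice. Of all tested miRNAs, 20.9% were lower without overlap. miR-148a-3p was closest to miR-186-5p (0.989), miR-450b-5p (0.986) and miR-27a-5p (0.981). In each of these, as in miR-148a-3p, knockout library S2 lay below the other knockout libraries: miR-450b-5p had 569, 389 and 571 CPM in S1, S2 and 3 and 352, 366 and 393 CPM in the ERβ libraries. It was called lower (-0.46 ± 0.14, adjusted p = 0.0436 in edgeR), a call that held in 4 of 15 alternatives. miR-186-5p and miR-27a-5p did not pass (-0.05 ± 0.06 and -0.21 ± 0.12). miR-148b-3p was closest to miR-182-5p (0.974), miR-301a-5p (0.942) and miR-4483 (0.941), none of which passed (0.17 ± 0.07, 0.09 ± 0.10 and 0.26 ± 0.10). Without knockout library S2, miR-27a-5p was called lower (-0.31) and miR-182-5p and miR-4483 higher (0.13 and 0.19). The 9 names did not repeat between the 3 guides, and whether they stand for separate loci was not examined.

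**Figure D5:**
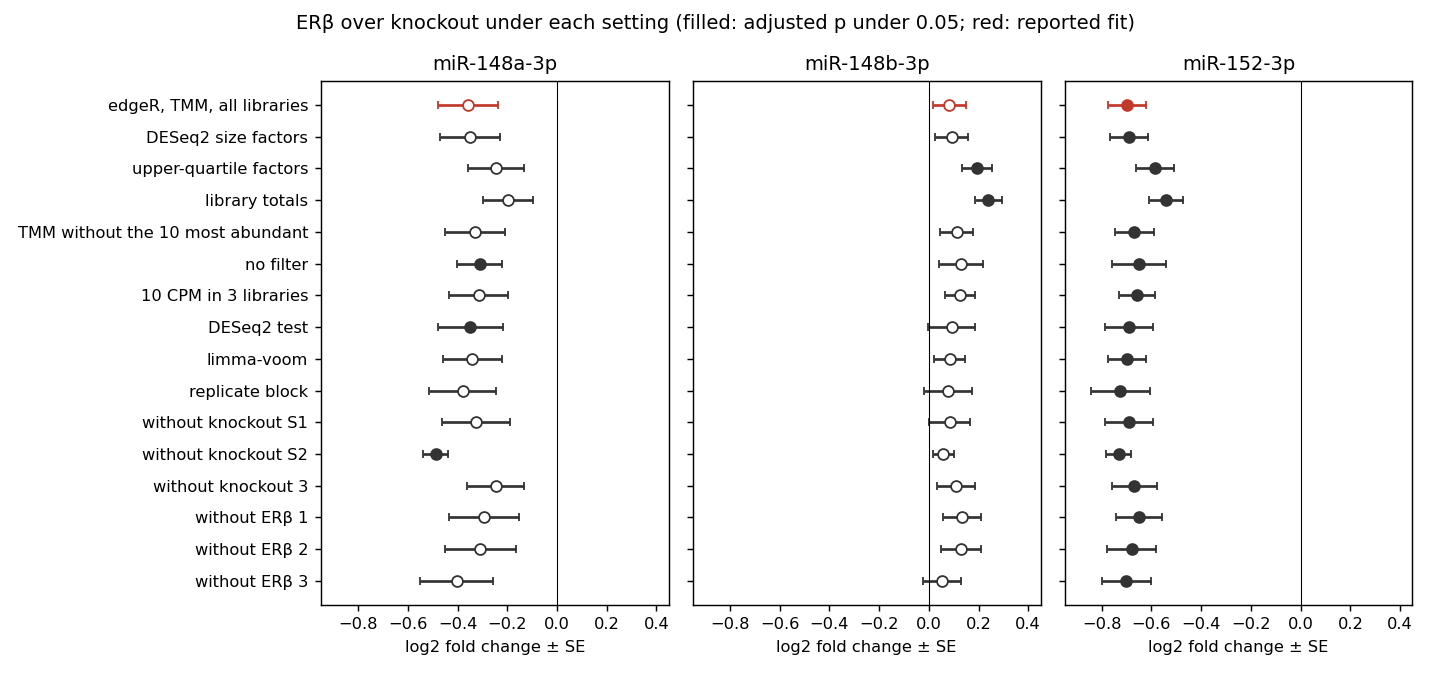
Log2 fold change, ERβ over knockout, with its standard error for the 3 guides under the reported fit (red) and 15 alternatives (black); filled points passed at an adjusted p under 0.05. miR-152-3p is filled throughout, miR-148a-3p in 3 alternatives and miR-148b-3p in 2.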

How the data were processed

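Small RNA libraries were prepared with a QIAseq miRNA kit, per the labels' protocols. The submitters' processing notes name FastQC, Trim Galore and GRCh38, with no version; aligner, counter and use of molecular identifiers: not given in the sources used here. Values deposited by the authors are expected counts for each mature miRNA; in each library 6.33 to 7.27% of them have a fraction. Columns were grouped by name; knockout columns S1 and S2 both carry the number 1 and are known by group only.

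Expected counts were rounded and fitted for all 6 libraries in edgeR 4.0.16 (R 4.3.3): filterByExpr (minimum count 10, minimum total 15), TMM, robust quasi-likelihood test, Benjamini-Hochberg adjustment. Standard errors are the size of the log2 fold change divided by √F. Library totals, with 3 counts worth 0.201 to 0.305 CPM, limit the precision of low counts. Ratios had 0.5 added to each count and were tested with exact permutation tests (scipy 1.17.1). Alternatives used DESeq2 1.42.0, limma 3.58.1, other scalings and filters, a replicate block and each library left out. On simulated data the test recovered 18.4%, 56% and 88% of true changes of 0.25, 0.5 and 1 log2 units. Of its calls there, 7.3% were false, and 0 calls were made when nothing was changed. Named beside the members are the 3 miRNAs most like each guide, the 5 most abundant, and per list the 3 of smallest adjusted p and any annotated neighbour. The members and lists were chosen with earlier results of these data known.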

Additional observations from a re-analysis of the deposited data

How the results depend on the processing

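The call of miR-152-3p and the direction of miR-148a-3p held in all 15 alternatives. The 3 ratios between guides were recomputed only with other added constants, with unrounded counts and with each library left out. None of them turned, but at these counts only leaving a library out could have moved them much. miR-148a-3p passed without a filter (-0.31) and in DESeq2 (-0.35), and ranged from -0.49 to -0.25 with a library left out. miR-148b-3p passed after upper-quartile scaling (0.20) and scaling by totals (0.24). Under these scalings, in that order, miR-148b-5p turned to 0.00838 and 0.0553, miR-130a-3p to 0.00698 and 0.0518, and miR-186-5p to 0.0592 and 0.10. miR-148b-5p ranged from -0.20 to -0.0353 with a library left out. miR-196b-5p ranged from -0.0923 to 0.13 and the log2 change of miR-148a-3p over miR-148a-5p from -0.22 to 0.0556 with a library left out. Summed guides averaged 11811 CPM in ERβ libraries with library totals.

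Of all tested miRNAs, 77 were higher and 104 lower; 123 were higher with upper-quartile factors, 146 higher and 61 lower with library totals, and 66 lower with 10 CPM in 3 libraries. With a library left out, 49 (without ERβ library 3) to 122 (without knockout library S2) were higher and 58 (without ERβ library 1) to 157 (without knockout library S2) lower; without ERβ libraries 2 and 3 in turn, 60 and 62 were lower. The share of calls that were higher was 42.5%, against 63.7% after upper-quartile scaling and 70.5% after scaling by totals. The related seeds had 1 higher after upper-quartile scaling and 3 after scaling by totals, and 0 to 1 higher and 0 to 1 lower with a library left out. The list on DNA methylation and chromatin had 2 higher with upper-quartile factors, 4 higher and 3 lower with library totals, and 1 to 2 higher and 3 to 7 lower with a library left out; its median turned from -0.15 to 0.00279 with library totals. The HOX list had 0 to 1 higher and 3 to 5 lower with a library left out. The causes were not tested.

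With the replicate number in the column names as a block, 38 miRNAs were higher and 50 lower. ERβ library 2 is alone in its block and adds nothing to the contrast, so this fit rests on fewer libraries. In it the list on DNA methylation had 0 higher and 2 lower (miR-449a and miR-143-3p). The adjusted p in edgeR was 0.0593 for miR-26a-5p, 0.0939 for miR-126-3p, 0.0814 for miR-342-3p and 0.0557 for miR-377-3p. miR-152-3p was at -0.73 and passed. Whether the numbers pair the libraries cannot be told, because knockout S1 and S2 share the number 1 and none carries the number 2. Deviations from group means correlated at -0.10 and 0.13 between ERβ library 1 and knockout S1 and S2, and at 0.12 between the libraries numbered 3. miR-152-5p has no value under the filter of 10 CPM in 3 libraries. Depth limits miR-152-5p most, with 9 to 19 counts per library.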
